A study of Boechera gunnisoniana with 7 samples.

Results

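The genes of the chloroplast and mitochondrial genomes were followed across 7 ATH1 arrays of the apomict *Boechera gunnisoniana*, a plant that forms seeds without fertilization of the egg cell. They were taken as all rows of the expression table whose *Arabidopsis* identifier starts with ATCG (chloroplast genome) or ATMG (mitochondrial genome). This gave 80 of the 21428 genes of the table, 3 from the chloroplast genome and 77 from the mitochondrial genome. The ATH1 array was designed for *Arabidopsis*. Per the study, signal across species depends largely on how similar probe and transcript sequences are. The 7 arrays were hybridized with amplified RNA from pooled sections cut by laser-assisted microdissection (LAM) from plants that the labels give as untreated. For mature gametophytes, flowers were emasculated before fixation, a step not named for the young buds, so that step and the stage cannot be told apart. They comprised 1 array of the egg cell, 1 of the central cell, 1 of the synergid cells, 2 of the apomictic initial cell (AIC) and 2 of the sporophytic nucellus. The AIC is the first cell of the apomictic germline and forms in the young ovule, where the nucellus tissue surrounds it. Egg, central and synergid cells belong to the mature gametophyte. Per the study's methods, AIC sections hold some nucellus, and sections of a gametophyte cell type hold some of the neighbouring gametophyte cells. Nothing in the labels says that the 2 arrays of a group came from separate plants, so p values measure the spread between these arrays, which may be technical.

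Plastids and mitochondria keep small genomes of their own. That of the plastid encodes subunits of the photosynthetic complexes and part of the machinery that expresses them, and that of the plant mitochondrion encodes subunits of the respiratory chain and of the ATP synthase, some ribosomal proteins and factors for cytochrome c maturation. Both genomes also encode a few other proteins, and most organelle proteins are encoded in the nucleus. Organelle transcripts mostly lack the long poly(A) tails of nuclear mRNAs, and the amplification named in the labels starts from such tails. How much of the organelle RNA was carried through amplification was not tested, and fewer organelle-rich cells in a pool cannot be told apart from less RNA per cell. The table, the paper and its supplements pair none of the 80 identifiers with a gene name, so genes are given by identifier alone.

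Many of these rows were not independent measurements. Of the 80 genes, 54 had exactly the values of another gene on all 7 arrays. A copy of the mitochondrial genome lies in chromosome 2 of *Arabidopsis*, and 49 of the 77 mitochondrial genes and 1 of the 3 chloroplast genes (ATCG00020) had the same values as a nuclear gene. The nuclear genes concerned numbered 47, and all 47 had identifiers between AT2G07660 and AT2G07835, a range that held 68 genes of the table. These identifiers belong to *Arabidopsis*, and the sources used do not say whether *B. gunnisoniana* holds such a nuclear copy. Equal values show that the array did not separate these rows. Signal of an organelle transcript and of a nuclear one, if there is one, cannot be told apart for them. Within the organelle genes, ATCG01000 and ATCG01130 shared their values, as did ATMG00080 and ATMG00090, ATMG00170 and ATMG00620, ATMG00040 and ATMG01080, and ATMG00490 and ATMG00500. The 77 mitochondrial genes therefore stood for 73 different sets of values. The other 28 mitochondrial genes and 2 chloroplast genes had no nuclear row of equal values.

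A presence cutoff for each array was read from the study's table of P calls, as the log2 value that separated features with a *Bg*PANP p value of 0.02 or lower from the rest. It was 4.94 for the egg cell, 5.59 for the central cell, 5.29 for the synergid cells, 4.97 and 5.01 for the AIC, and 4.96 and 5.07 for the nucellus. The central cell array had both the highest cutoff and the fewest genes above it, 2986. The other arrays had between 4149 and 5835. On the same arrays the Affymetrix control for 25S rRNA read 10.93 for the egg cell and between 11.79 and 13.14 on the other 6. The mean of the 16 hybridization controls was 10.38 for the egg cell, 11.17 for the central cell and 12.32 for the synergid cells. It was 9.56 and 8.86 on the AIC arrays, and 9.86 and 10.03 on the nucellus arrays. The part of the cutoff, of these controls or of the dissection in the results below was not tested. Of the marker genes of each cell type, 0 of 3 egg cell markers exceeded the cutoff on the egg cell array. Of 6 central cell markers 1 did so on the central cell array, AT5G48670 with 6.60, and it was also above the cutoff with 6.10 on the egg cell, 6.14 on the synergid, 4.99 on the first AIC and 5.56 on the second nucellus array. Of 2 synergid markers 1 did so on the synergid array, AT4G18770 with 6.61, and on no other array. Of 5 nucellus and ovule markers, 1 was above the cutoff on the first nucellus array and 0 on the second. Of 2 young germline markers, 0 were above it on either AIC array and 1 was on the second nucellus array.

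The 3 chloroplast genes were high on nearly all arrays. ATCG01000 and ATCG01130 had 11.69 in the egg cell, 7.78 in the central cell, 7.39 in the synergid cells, 10.20 and 10.49 in the AIC, and 10.78 and 10.43 in the nucellus, on the log2 scale. The egg cell was highest, the AIC and nucellus values overlapped, and central and synergid cells were lowest. In the egg cell the value stood at the 99.98th percentile of all genes on that array, and in the synergid cells at the 97.18th. ATCG00020 had 9.26 in the egg cell, 7.66 in the central cell, 4.57 in the synergid cells, 10.02 and 10.11 in the AIC, and 7.99 and 9.80 in the nucellus. It was below the cutoff on the synergid array alone, and both AIC values lay above both nucellus values. Its value is also that of the nuclear gene AT2G07688. As these 3 genes gave 2 sets of values, they say little about the chloroplast genome as a whole.

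Of the 77 mitochondrial genes, 38 passed the cutoff somewhere among the 7 arrays and 39 (50.6%) nowhere, against 60.1% of all genes nowhere. The 39 had values between 2.37 and 5.20. Whether such genes lacked transcripts or lacked probes that match *Boechera* sequences was not tested. On all 7 arrays, 9 genes (11.7%) were above the cutoff, against 9.55% of all genes. These were ATMG00580, ATMG00080, ATMG00090, ATMG00990, ATMG00220, ATMG01020, ATMG00170, ATMG00620 and ATMG01040, with 7 sets of values. Of the 7 genes above it on 6 arrays, 6 were missing from the egg cell array. All 6 had the values of a nuclear row, and ATMG00040 and ATMG01080 among them are one set of values. No share over all genes is given for this count, so it shows nothing particular to the mitochondrial genes.

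**Figure D1:**
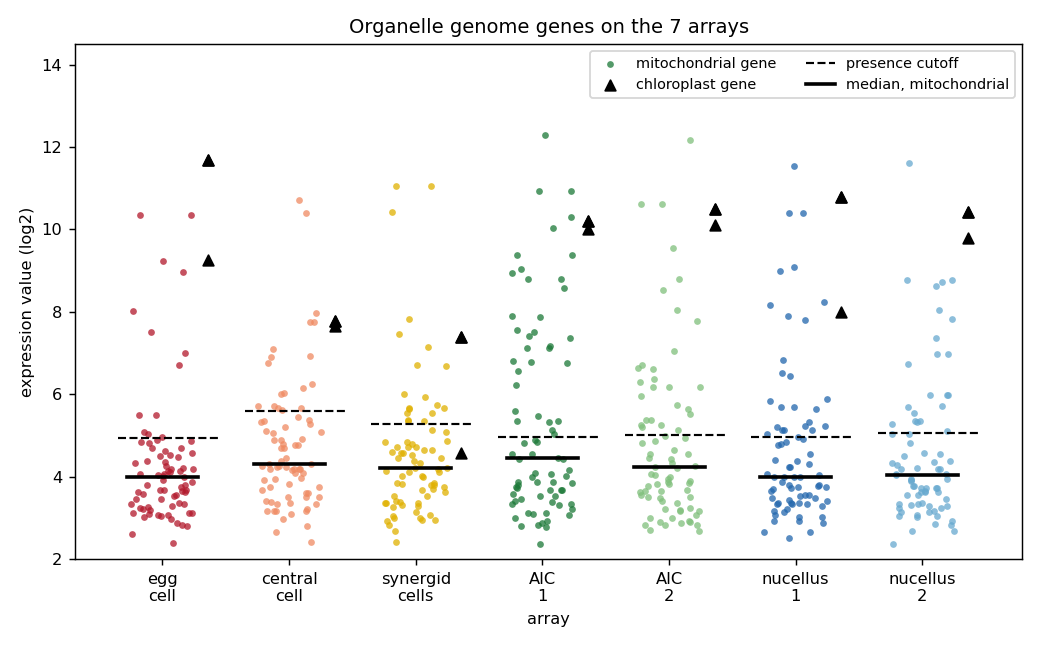
Log2 expression values (vertical axis) of the 77 mitochondrial genes (dots) and 3 chloroplast genes (triangles, some overlapping) on each of the 7 arrays. Dashed lines mark the presence cutoff and solid bars the mitochondrial median, which lay between 4.0 in the egg cell and 4.46 on the first AIC array, below the cutoff on every array.

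The number of mitochondrial genes above the cutoff differed between cell types. It was 13 (16.9%) in the egg cell, 18 (23.4%) in the central cell, 19 (24.7%) in the synergid cells, 33 (42.9%) and 27 (35.1%) in the AIC, and 25 (32.5%) and 22 (28.6%) in the nucellus. Over all genes the share was 27.2% in the egg cell, 13.9% in the central cell, 19.4% in the synergid cells, 26.5% and 26.1% in the AIC, and 26.6% and 24.4% in the nucellus. Over the 77 rows the share was thus below that of all genes in the egg cell and above it on the other 6 arrays. This direction turned on 4 of the 6 when rows with the values of a nuclear gene were left out, as given below. No test was made of these shares, since genes of one genome are not replicates.

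**Figure D2:**
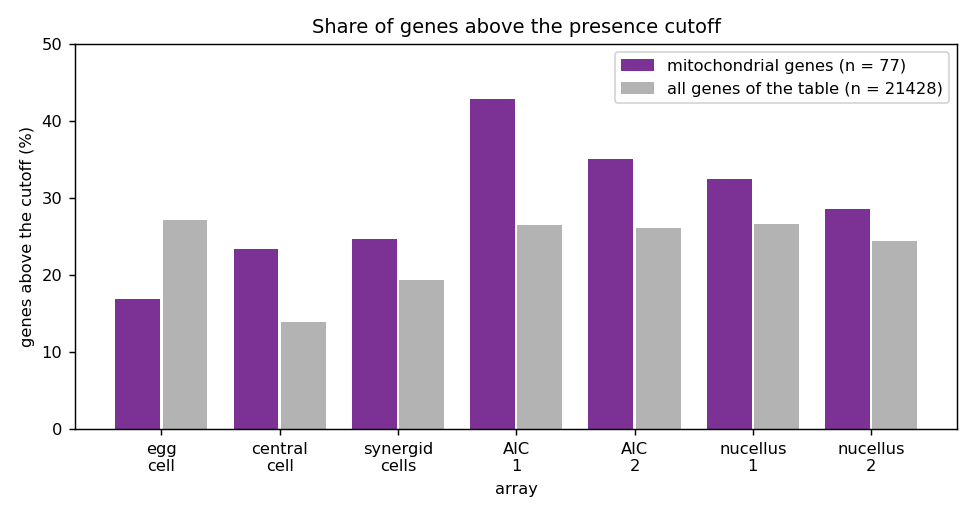
Percentage of genes above the presence cutoff (vertical axis) on each array, for the 77 mitochondrial genes (purple bars) and for all 21428 genes of the table (grey bars). Over these 77 rows the mitochondrial share lies below that of all genes in the egg cell (16.9% against 27.2%); without the 49 rows that share their values with a nuclear gene it lies below on the synergid, second AIC and both nucellus arrays too.

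The order of cell types depended on the rows that share values with chromosome 2. Among the 49 mitochondrial genes with a nuclear row of equal values, 7 were above the cutoff in the egg cell, 13 in the central cell, 14 in the synergid cells, 25 and 21 in the AIC, and 18 and 16 in the nucellus. Among the 28 without one, the numbers were 6 (21.4%) in the egg cell, 5 (17.9%) in the central cell, 5 (17.9%) in the synergid cells, 8 (28.6%) and 6 (21.4%) in the AIC, and 7 (25%) and 6 (21.4%) in the nucellus. These shares were above those of all genes in the central cell and on the first AIC array alone, and below them on the other 5 arrays. In the second set the counts differed by no more than 3 genes between any arrays, and the second AIC array equalled the egg cell array. The 28 were set apart by exact equality on all 7 arrays. Genes with a nuclear row of close but unequal values, such as ATMG00080 and ATMG00090 with AT2G07811, stayed among them.

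The median over the 77 genes was 4.0 in the egg cell, 4.32 in the central cell, 4.22 in the synergid cells, 4.46 and 4.23 in the AIC, and 4.0 and 4.04 in the nucellus. All genes had medians of 4.01 in the egg cell, 4.16 in the central cell, 4.10 in the synergid cells, 4.0 and 4.03 in the AIC, and 4.0 and 4.02 in the nucellus. As most mitochondrial genes lay below the cutoff, the median described rows without a P call. The median member stood at the 49.4th percentile of all genes in the egg cell, the 55.1st in the central cell, the 54.1st in the synergid cells, the 62.8th and 56.0th in the AIC, and the 50.3rd and 50.6th in the nucellus.

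The 10 mitochondrial genes with the highest mean over the arrays are described next. Values of different probe sets are not on a common scale of transcript amount, so their order is one of signals. ATMG00580 was the highest, with 9.23 in the egg cell, 7.97 in the central cell, 10.42 in the synergid cells, 12.30 and 12.16 in the AIC, and 11.55 and 11.62 in the nucellus. Its AIC values exceeded all others and the 3 gametophyte values lay below all 4 young ovule values. It has no nuclear row of equal values.

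ATMG00080 and ATMG00090 had 10.36 in the egg cell, 7.76 in the central cell, 11.05 in the synergid cells, 10.93 and 10.62 in the AIC, and 10.40 and 8.77 in the nucellus. They were highest in the synergid cells and lowest in the central cell. The nuclear gene AT2G07811, with values that were close but not equal, had 10.56 in the egg cell, 8.50 in the central cell, 10.92 in the synergid cells, 11.09 and 10.99 in the AIC, and 10.76 and 9.27 in the nucellus. Like ATMG00080, it was lowest on the central cell array and next lowest on the second nucellus array.

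ATMG01190 and ATMG00730 were highest in the central cell and below the cutoff in the egg cell. ATMG01190 had 4.87 in the egg cell, 10.72 in the central cell, 7.83 in the synergid cells, 10.30 and 9.56 in the AIC, and 8.98 and 8.62 in the nucellus. Its central cell value was at the 99.98th percentile of that array. ATMG00730 had 4.05 in the egg cell, 10.41 in the central cell, 5.75 in the synergid cells, 10.04 and 6.62 in the AIC, and 9.09 and 8.04 in the nucellus. For ATMG00730 the 2 AIC arrays lay on either side of both nucellus arrays.

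The next genes showed other orders of the cell types. ATMG00220 had 8.97 in the egg cell, 6.90 in the central cell, 5.66 in the synergid cells, 8.59 and 8.54 in the AIC, and 7.81 and 7.38 in the nucellus, so that egg cell and AIC were above the nucellus and the synergid cells lowest. ATMG00830 had 8.02 in the egg cell, 5.28 in the central cell, 7.14 in the synergid cells, 6.56 and 7.04 in the AIC, and 6.45 and 6.74 in the nucellus, and was the only one of the 10 below the cutoff in the central cell besides ATMG00210. ATMG00990 varied least, with 7.52 in the egg cell, 7.11 in the central cell, 7.47 in the synergid cells, 8.81 and 8.04 in the AIC, and 8.17 and 7.83 in the nucellus.

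ATMG00570 had 4.88 in the egg cell, just under the cutoff, 6.93 in the central cell, 6.70 in the synergid cells, 7.37 and 7.78 in the AIC, and 7.91 and 6.97 in the nucellus. ATMG00210 had 4.25 in the egg cell, 5.32 in the central cell, 5.34 in the synergid cells, 8.95 and 8.79 in the AIC, and 5.88 and 8.72 in the nucellus, with 1 nucellus array near the AIC and the other near the gametophyte cells. Across the 10 genes the lowest value was on the central cell array for 5, on the egg cell array for 4 and on the synergid array for 1. It was on an AIC or nucellus array for 0 of the 10, and 2 of the 5, ATMG00080 and ATMG00090, are one set of values. Among the 6612 genes that passed the cutoff on 2 or more arrays, the lowest value was on the central cell array for 24%. It was on the egg cell array for 15.8% and on the synergid array for 18.4%. For the first and second AIC arrays the share was 8.23% and 8.76%. For the first nucellus array it was 10.3% (683 genes), and the second was lowest for 960 of the 6612. A lowest value on these 4 young ovule arrays was thus not rare among all genes. Of the 30 mitochondrial genes with this filter, the egg cell array was lowest for 13 (43.3%) and the central cell for 5 (16.7%). All of the 13 but ATMG00810 had the values of a nuclear row, so the 43.3% rests mostly on rows that share values with chromosome 2. The synergid array was lowest for 6 (20%), each nucellus array for 3 (10%) and each AIC array for 0. The order of arrays among the 10 thus did not hold.

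**Figure D3:**
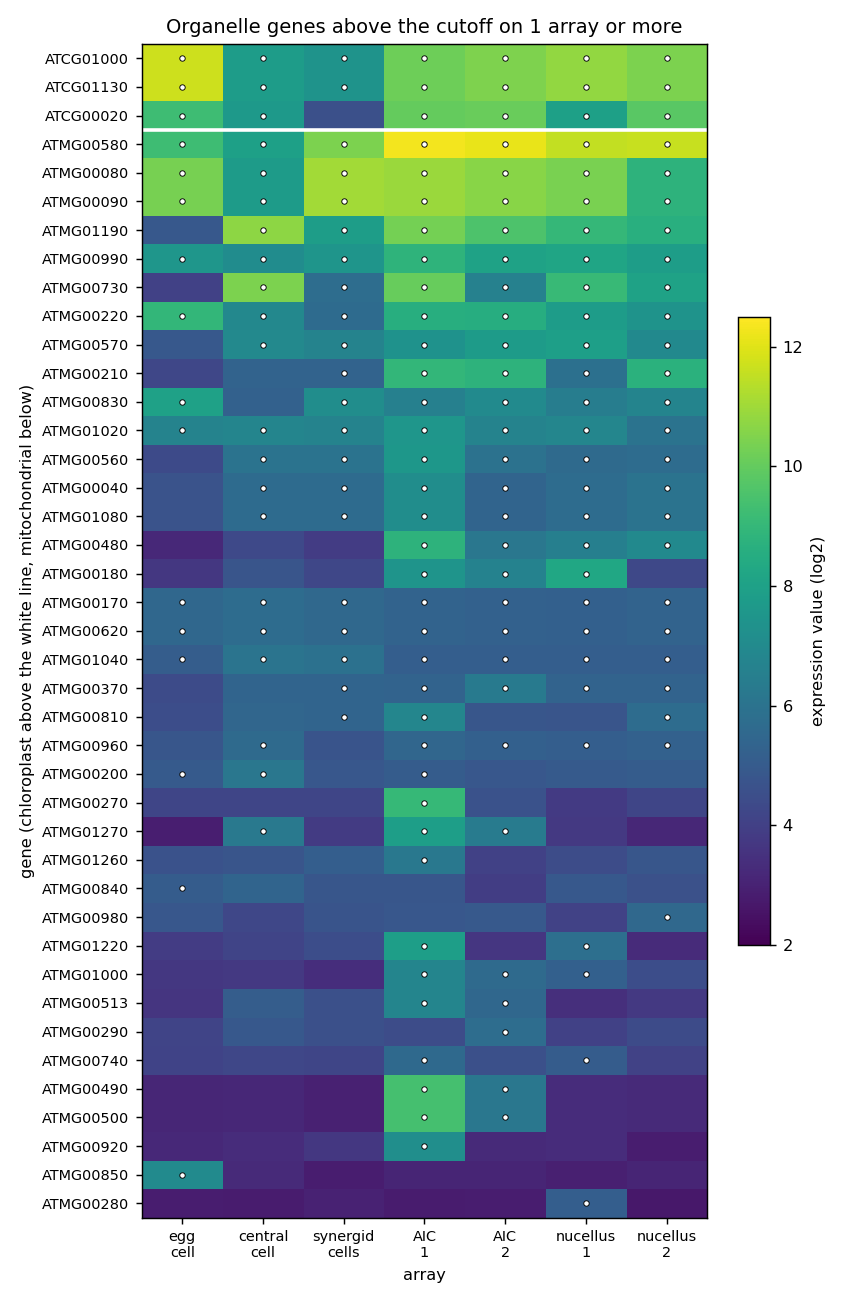
Log2 expression values (colour) of the 3 chloroplast and 38 mitochondrial genes above the cutoff on at least 1 array, with arrays in columns and genes in rows by falling mean within each genome. White points mark values above the cutoff of their array, and 20 mitochondrial genes carry one on both AIC and both nucellus arrays.

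Other genes above the cutoff on all 7 arrays were lower and flatter. ATMG01020 had 6.70 in the egg cell, 6.76 in the central cell, 6.70 in the synergid cells, 7.51 and 6.71 in the AIC, and 6.84 and 5.99 in the nucellus. ATMG00170 and ATMG00620 had 5.51 in the egg cell, 5.73 in the central cell, 5.56 in the synergid cells, 5.35 and 5.27 in the AIC, and 5.23 and 5.35 in the nucellus. ATMG01040 had 5.10 in the egg cell, 6.03 in the central cell, 5.93 in the synergid cells, 5.14 and 5.14 in the AIC, and 5.14 and 5.12 in the nucellus. Egg, central and synergid cells were above the AIC and nucellus for ATMG00170 and ATMG00620, and below the first AIC array for ATMG01020.

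The comparison of the AIC with the nucellus asked how the first germline cell differs from the tissue around it. Both AIC values lay above both nucellus values for 15 of 77 mitochondrial genes (19.5%), against 12.7% of all genes, and below them for 8 (10.4%), against 14.3% of all genes. Of the 49 genes with a nuclear row of equal values, 10 were higher and 3 lower in the AIC, whereas of the 28 without one 5 were higher and 5 lower. The 8 lower genes were below the cutoff on all 7 arrays, with differences between -0.39 and -0.08. By limma on all genes with Benjamini-Hochberg adjustment, 0 of 77 mitochondrial and 0 of 3 chloroplast genes passed the threshold of 0.05, as did 0 of all 21428 genes. At an unadjusted p under 0.05 there were 7 mitochondrial genes (9.09%) and 0 chloroplast genes, against 3.82% of all genes. The median AIC minus nucellus difference over the 77 genes was 0.10, and over all genes -0.01.

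The 5 genes with the largest differences without overlap all had nuclear rows of equal values. They began with ATMG00490 and ATMG00500, which had 9.38 and 6.17 in the AIC, against 3.34 and 3.24 in the nucellus. The difference was 4.48 ± 1.26 (SE, n = 2 arrays each, adjusted p = 0.938 by limma). Egg, central and synergid cells had 3.12, 3.18 and 2.96, so that the AIC was the one cell type above the cutoff. The AIC arrays had an SD of 2.27, against 0.07 for the nucellus arrays.

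ATMG01270 had 7.91 and 6.38 in the AIC, against 3.76 and 3.15 in the nucellus, a difference of 3.69 ± 0.65 (SE, adjusted p = 0.938 by limma). It was also above the cutoff in the central cell, with 6.26, but not in the egg cell, with 2.87, or the synergid cells, with 3.83. ATMG00513 had 6.79 and 5.52 in the AIC, against 3.41 and 3.73 in the nucellus, a difference of 2.59 ± 0.52. These genes were above the cutoff on both AIC arrays and on no nucellus array, as 4 mitochondrial genes were (5.19%), against 0.887% of all genes. The reverse held for 0 mitochondrial genes, against 0.527% of all genes.

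ATMG00270 had 9.05 and 4.65 in the AIC, against 3.80 and 4.18 in the nucellus, a difference of 2.86 ± 1.73 (SE). It was above the cutoff on the first AIC array alone, as were 3 of the 77 genes (3.9%), against 1.01% of all genes. At lower spread stood ATMG00580, with a difference of 0.65 ± 0.12, and ATMG00220, with 0.97 ± 0.20 (SE, adjusted p = 0.938 for both by limma). In the chloroplast genome, ATCG00020 differed by 1.17 ± 0.72 and ATCG01000 by -0.26 ± 0.20, with overlap for the second (SE, adjusted p = 0.938 for both by limma). The difference of ATCG00020 was 0.26 without the first nucellus array and 2.08 without the second. That of ATMG00270 was 0.67 without the first AIC array.

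**Figure D4:**
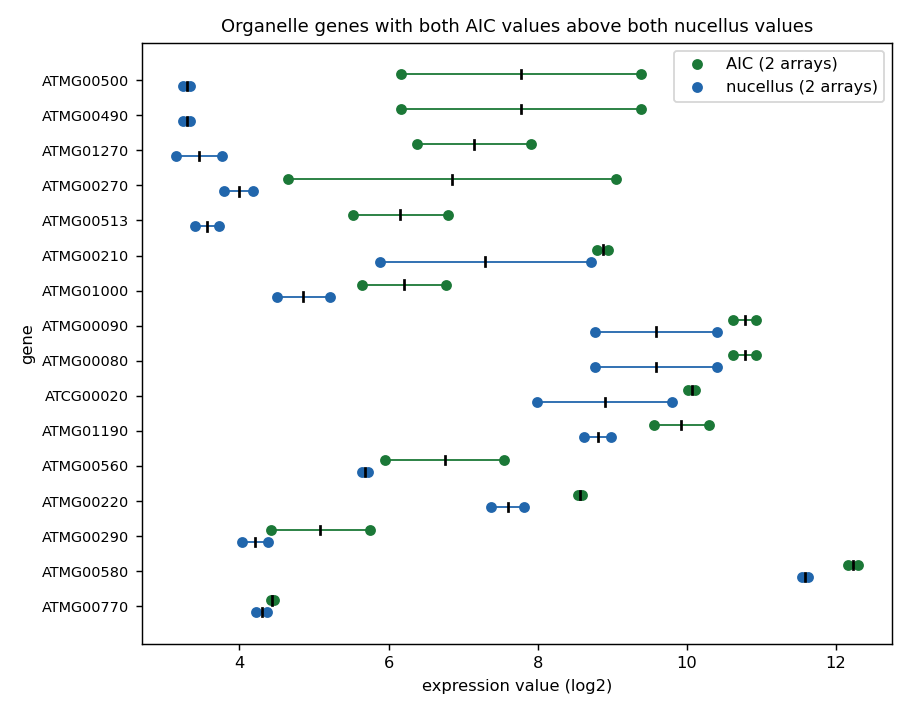
Log2 expression values (horizontal axis) of the 16 organelle genes whose 2 AIC values (green) both lie above the 2 nucellus values (blue), by size of the difference. Lines join the 2 arrays of a group and black ticks mark their means; for ATMG00270 the AIC values are 9.05 and 4.65.

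The first AIC array carried much of this spread. The 2 AIC arrays differed by more than 1 on the log2 scale for 18 of the 77 mitochondrial genes (23.4%), against 7.83% of all genes, and the first array was the higher one for 16 of the 18. The nucellus arrays differed by more than 1 for 8 (10.4%), against 11.3% of all genes. With the arrays numbered as in the labels, the first AIC array had 33 mitochondrial genes above the cutoff and the second 27, while over all genes they had 5678 and 5595.

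The mature gametophyte cells were compared with the young ovule samples. All 3 gametophyte values lay below all 4 AIC and nucellus values for 8 of 77 mitochondrial genes (10.4%), against 3.97% of all genes, and above them for 6 (7.79%), against 7% of all genes. Of the 6 higher genes, 4 were below the cutoff on all arrays and the other 2 were ATMG00170 and ATMG00620. The mean difference was tested by limma with the spread taken from the AIC and nucellus pairs alone, and 0 of 80 genes passed after adjustment, as did 0 of all 21428. At an unadjusted p under 0.05 there were 21 mitochondrial genes (27.3%) and 3 chloroplast genes, against 19.8% of all genes.

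ATMG00580 came nearest to the threshold, with a mean of 9.21 in the 3 gametophyte cell types and 11.91 in the AIC and nucellus, a difference of -2.70 ± 0.09 (SE, adjusted p = 0.108 by limma). The SE reflects the narrow AIC and nucellus pairs, while the gametophyte cell types spread between 7.97 and 10.42. ATMG00480 had 3.19, 4.32 and 3.86 in egg, central and synergid cells, all below the cutoff, against 8.79 and 6.18 in the AIC and 6.53 and 6.97 in the nucellus, all above it. Its difference was -3.33 ± 0.79, and that of ATMG00210, given above, was -3.11 ± 0.85 (SE, adjusted p of 0.194 and 0.214 by limma). For ATMG00490 and ATMG00500 the difference was -2.45 ± 0.96, but their nucellus values of 3.34 and 3.24 exceeded the central cell value of 3.18 by little.

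The chloroplast genes differed by -1.52 ± 0.16 for ATCG01000 and ATCG01130 and by -2.32 ± 0.55 for ATCG00020 (SE, adjusted p of 0.144 and 0.192 by limma). In both cases the groups overlapped: the egg cell value of ATCG01000 lay above all 4 young ovule values, and that of ATCG00020 above the first nucellus array.

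**Figure D5:**
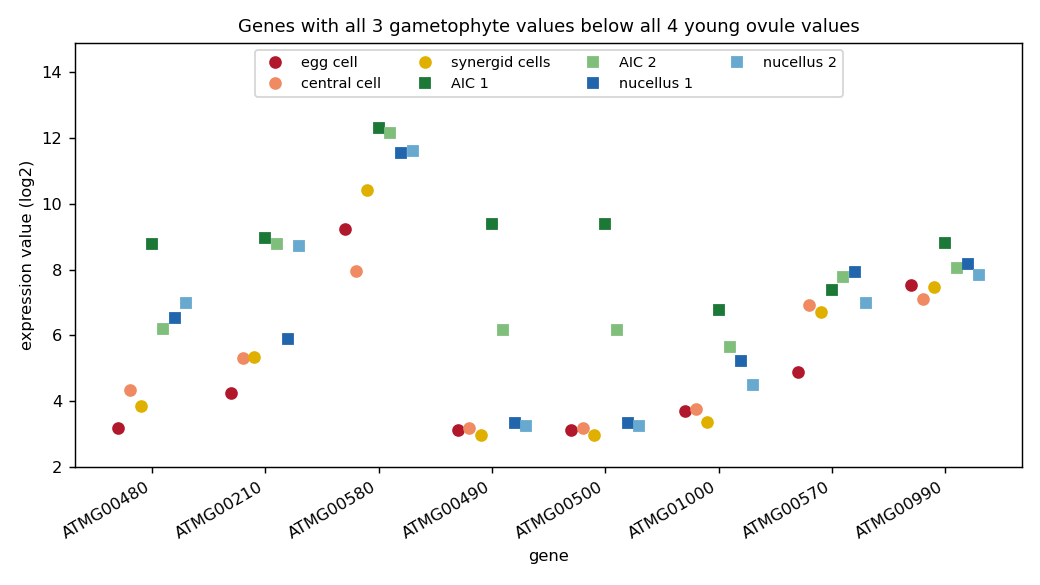
Log2 expression values (vertical axis) of the 8 mitochondrial genes whose egg, central and synergid cell values (circles) all lie below the AIC and nucellus values (squares). ATMG00490 and ATMG00500 have equal values, and ATMG00580 reaches 12.30 in the AIC.

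The 3 gametophyte cell types were also set against the AIC one by one. After adjustment 0 of 80 organelle genes passed in the egg cell, the central cell or the synergid cells, as did 0 of all genes. At an unadjusted p under 0.05 there were 13 mitochondrial genes in the egg cell (16.9%, against 10% of all genes), 23 in the central cell (29.9%, against 18.1%) and 15 in the synergid cells (19.5%, against 15%). In the egg cell, ATMG01190 was at -5.05 ± 0.41 and ATMG00730 at -4.28 ± 1.72 relative to the AIC, while ATCG01000 was at 1.34 ± 0.25 (SE, adjusted p of 0.174, 0.579 and 0.330 by limma). In the central cell ATMG01190 was at 0.79 ± 0.41 and ATCG01000 at -2.56 ± 0.25 (SE, adjusted p of 0.448 and 0.153 by limma). In the synergid cells ATCG00020 was at -5.50 ± 0.88 (SE, adjusted p = 0.230 by limma). These comparisons share the AIC arrays, and each gametophyte cell type has 1 array.

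Genes above the cutoff on 1 array alone were few. In the egg cell they were 2 mitochondrial genes (2.6%, against 2.26% of all genes). One, chosen after its values were seen, was ATMG00850, with 7.02 in the egg cell and between 2.83 and 3.23 on the other 6 arrays. Central and synergid cells had 0 such genes, against 0.565% and 0.747% of all genes. The second AIC array had 1 (1.3%, against 1.39% of all genes), the first nucellus array 1 (against 1.27%) and the second nucellus array 1 (against 1.8%).

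The mitochondrial genes were also counted by known role. Lists of 41 genes for the respiratory complexes, the ATP synthase, cytochrome c maturation, ribosomal proteins, ribosomal RNAs and a few other proteins were drawn up from general knowledge of the *Arabidopsis* genome, as no annotation was used here. Of these, 21 had array values, 0 of the 3 ribosomal RNAs among them, and 20 of the 21 were above the cutoff on at least 1 array. The other 56 mitochondrial genes, mostly open reading frames of unknown role, had 18 above it. Of the 21 listed genes, 6 were above the cutoff in the egg cell, 12 in the central cell, 12 in the synergid cells, 18 and 18 in the AIC, and 15 and 15 in the nucellus. The 56 others had 7 in the egg cell, 6 in the central cell, 7 in the synergid cells, 15 and 9 in the AIC, and 10 and 7 in the nucellus. Over all genes the shares in this order were 27.2%, 13.9%, 19.4%, 26.5%, 26.1%, 26.6% and 24.4%, with 60.1% above the cutoff on no array.

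By complex, 2 of 4 complex I genes, 1 of 2 complex III and IV genes, 0 of 3 ATP synthase genes, 1 of 3 cytochrome c maturation genes and 2 of 7 ribosomal protein genes were above the cutoff in the egg cell. On the first AIC array the counts were 4 of 4, 2 of 2, 3 of 3, 3 of 3 and 5 of 7 in the same order. Over all genes the share above the cutoff was 27.2% in the egg cell and 26.5% on the first AIC array. Both AIC values lay above both nucellus values for 11 of the 21 listed genes, against 12.7% of all genes, and below them for 0. The 11 were 6 of 7 ribosomal protein genes, 3 of 4 complex I genes, 1 of 2 complex III and IV genes and 1 of 3 ATP synthase genes, with 0 of 3 cytochrome c maturation genes and 0 of 2 others. The 6 ribosomal protein genes include 2 with one set of values. Of the 21 listed genes, all but ATMG00580, ATMG00080, ATMG00090 and ATMG00960 had the values of a nuclear row. ATMG00580, ATMG00080 and ATMG00090 were the only ones of the 11 without such a row. Listed and other genes were not compared without the rows that share nuclear values. The median AIC minus nucellus difference was 0.76 over the 21 listed genes and 0.03 over the 56 others, and 0 of the 77 passed the test.

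A list of 9 nuclear genes for organelle RNA polymerases and sigma factors, set up in the same way, had 3 genes above the cutoff in the egg cell, 0 in the central cell, 2 in the synergid cells, 1 and 2 in the AIC, and 2 and 1 in the nucellus. The shares over all genes in this order were 27.2%, 13.9%, 19.4%, 26.5%, 26.1%, 26.6% and 24.4%. In the comparison of AIC and nucellus 0 of the 9 passed the test, and their median difference was -0.09. The nuclear genes of the chromosome 2 range that had no organelle row of equal values numbered 21, of which 4 were above the cutoff on at least 1 array and 1, AT2G07811, on all 7. Of all genes, 60.1% were above it on no array and 9.55% on all 7.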

How the data were processed

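The authors deposited log2 expression values, 1 per *Arabidopsis* gene and array, from ATH1 GeneChips hybridized with RNA amplified in rounds with the MessageAmp II kit. Per the study's methods, probes were regrouped by gene with an updated ATH1 annotation, and RMA is named for the log2 microarray values of heatmaps. Whether the deposited values are those RMA values is not stated, and no further normalization was applied. The table held 21492 features, of which 64 were control features, which were left out, and 0 sample columns were unused. Arrays have no read depth, and their number limits the precision. Presence cutoffs were set on the 1999 rows of the study's call table at hand, and on each array 0 of them were misplaced.

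Group means of all 7 arrays were fitted with limma 3.58.1 (lmFit, eBayes, R 4.3.3), with 2 residual degrees of freedom from the AIC and nucellus pairs. The spread of these pairs stood in for that of the cell types with 1 array, and p values were adjusted by Benjamini-Hochberg over 21428 genes. Exactly the same value on 2 or more arrays occurred for 31 organelle genes. For ATMG01040 the SD between the AIC arrays was 0. The part of such ties in the SEs and p values was not tested. The routines were tested on simulated data. Summaries and plots used Python 3.11.15, pandas 2.3.3 and matplotlib 3.10.9.

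The members and lists were chosen with earlier results of these data known. Genes were named as the 10 highest means per genome, those above the cutoff on all 7 arrays, and the 5 largest differences without overlap between AIC and nucellus, or between gametophyte and young ovule samples. Alternatives were other cutoffs, quantile normalization, centring, a filter on low genes, a trended prior, the 4 AIC and nucellus arrays alone, a replicate block and each array left out in turn.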

Additional observations from a re-analysis of the deposited data

How the results depend on the processing

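The limma comparisons called 0 organelle genes under every setting that was run, which in a design with 2 residual degrees of freedom says little on stability. The number at an unadjusted p under 0.05 for AIC against nucellus was 7, and ranged between 6 and 14 when 1 AIC or nucellus array was left out, with 14 without AIC replicate 2. For the gametophyte against the young ovule it was 24, and 10 with the filter on low genes, which left 30 mitochondrial and 3 chloroplast genes. Added up over the comparisons of the 3 gametophyte cell types with the AIC, the number was 58, and 37 with that filter. In this sum a gene can count once per comparison, so it is not a number of different genes. No share over all genes is given for the sum or for the filtered counts. When the replicate number entered the fit as a block, 0 genes were called and 10 had an unadjusted p under 0.05. The numbers only name the arrays, and across all genes the differences between replicates 1 and 2 of the AIC and of the nucellus had an r of 0.03. The alternatives were followed only for genes named for the largest differences without overlap in the 2 comparisons. These differences kept their sign under all settings run for them, but some moved by over 1.5 times when 1 array was left out. Other differences given above, such as those of ATCG01000 and ATMG00220, were not followed. The AIC minus nucellus difference without AIC replicate 1 was 2.88 for ATMG00490 and ATMG00500 and 0.67 for ATMG00270, and without AIC replicate 2 it was 5.06 for ATMG00270. For ATCG00020 it was 0.26 without nucellus replicate 1 and 2.08 without nucellus replicate 2.

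Counts above the cutoff stayed within 1.5 times of those reported at p limits of 0.01 and 0.05, with both placements and with one cutoff after centring, except for the egg cell at 0.05, with 21 mitochondrial genes. Chosen after seeing the data, a count without genes that share values with a nuclear row gave 6 for the egg cell, 5 for the central cell, 5 for the synergid cells, 8 and 6 for the AIC and 7 and 6 for the nucellus. With each set of values counted once, also chosen after seeing the data, the synergid array had 1 chloroplast gene above the cutoff.

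The mitochondrial median moved by more than the SD between arrays of a pair (0.12) when the mean was taken, to 4.35 in the egg cell, 4.75 in the central cell, 4.62 in the synergid cells, 5.40 and 4.85 in the AIC and 4.73 and 4.60 in the nucellus. Over the 38 genes above the cutoff on at least 1 array it was 4.67 in the egg cell, 5.42 in the central cell, 5.24 in the synergid cells, 7.15 and 5.69 in the AIC and 5.23 and 5.34 in the nucellus. With arrays centred on their median the central cell had 4.20. When the lowest value of one group had to exceed the highest of the other by at least 0.5, 7 mitochondrial genes were higher and 0 lower in the AIC, and 0 chloroplast genes were higher. With the filter that asks for 2 arrays above the cutoff, 12 of 30 mitochondrial genes (40%) were higher and 0 lower. No share over all genes is given for the gap of 0.5 or for the filter. These counts therefore show nothing particular to the organelle genes.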
